A study of Mus musculus with 20 samples.

Results

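The kinase module of Mediator is coded in the mouse by 7 genes, which were taken by symbol from count tables of 24062 genes: the kinases Cdk19 and Cdk8, the cyclin Ccnc, and the subunits Med12, Med12l, Med13 and Med13l. The set was built around Cdk19 because its count was several fold higher in lungs of mice kept in hypoxia, and the other 6 genes came with it as its paralog and its partners. All 7 passed the filter on low counts, as did 15766 of the 24062 genes. The data were RNA-seq libraries of whole lung in 16 numbered samples from mice of strain C57/129, adults of 8 to 10 weeks and of both sexes. They formed 4 groups of 4: wild type (Arg2+/+) or knockout (Arg2-/-) for the arginase 2 gene Arg2, each kept for 28 days in a chamber flushed with 21% oxygen, here called room air, or with 10% oxygen in nitrogen, here called hypoxia. All mice were anesthetized with ketamine and xylazine before the lungs were taken, and no other allele or agent is named in the labels. The study examined how hypoxia changes lung transcripts with and without Arg2.

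Mediator is the complex that links transcription factors at enhancers to RNA polymerase II. Its head, middle and tail modules, held together by the scaffold subunit Med14, form the core, and the kinase module binds to that core reversibly and governs its contact with the polymerase. In the module, Cyclin C (Ccnc) and Med12 activate the kinase, and Med13 ties the module to the core. Cdk8 and Cdk19 are alternatives for the same place, as are Med12 and Med12l, and Med13 and Med13l, so that each assembled module holds 1 of each pair. In cultured cells the kinases are known for acting with many signal-dependent factors, among them the hypoxia-inducible factors.

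Since Cdk19 and Cdk8 are paralogs, their coding sequences were compared first, to see how far reads of one could be counted for the other. The coding sequences were 75.2% identical over 1388 aligned bases (GENCODE transcripts, GRCm38), and the longest run without a difference was 23 bases. The stretch that holds this run is coding bases 499 to 648 of either gene, in the part that codes for the kinase domain. It is shown 5′ to 3′ in lower case, with capitals at the 33 bases where the paralogs differ.
Cdk19: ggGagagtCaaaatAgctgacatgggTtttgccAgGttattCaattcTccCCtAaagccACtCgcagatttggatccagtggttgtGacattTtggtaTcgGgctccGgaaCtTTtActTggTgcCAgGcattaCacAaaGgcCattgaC
Cdk8: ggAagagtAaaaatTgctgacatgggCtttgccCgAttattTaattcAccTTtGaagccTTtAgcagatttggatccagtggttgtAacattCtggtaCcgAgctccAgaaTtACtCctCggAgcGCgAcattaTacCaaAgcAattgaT
The differences are scattered along the stretch, which is 78% identical, so the 23-base run is followed and preceded by capitals within a few bases. Over the whole Cdk19 transcript, 0 of 5758 stretches of 50 bases occurred in a sense transcript of another gene. For Cdk8, 17.9% of such stretches also occurred in the pseudogene transcript Gm7107, which has no row in the tables. Med12 shared 10.4% with Gm21986, a transcript that overlaps its 3′ end, and the longest identical runs of Med12l with Med12 and of Med13l with Med13 were 24 and 20 bases. Counts of Cdk8 and Med12 are therefore less certain than those of Cdk19, while the read length and the rule of the counting for overlapping genes are not stated in the labels.

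Cdk19 lies on chromosome 10 (40339564 to 40483818, plus strand, GRCm38) and was the gene around which the set was built. In wild type lungs in room air its level was 94.3, 83.0, 99.9 and 101 CPM (counts relative to the total in genes, scaled by the TMM method) in samples 1 to 4. In wild type lungs in hypoxia it was 802, 760, 730 and 630 CPM. All hypoxic samples stood far above all room air samples, and 8.23% of all genes had groups that did not overlap in this comparison. The means were 94.5 ± 8.23 and 731 ± 73.2 CPM (SD, n = 4 each), a ratio of 7.73, and the fitted log2 fold change was 2.95 ± 0.13 (SE). That was the 18th highest of the 15766 fitted changes, and no test is given because this difference chose the gene. In knockout lungs Cdk19 was at 157, 125, 103 and 117 CPM in room air and at 467, 550, 445 and 545 CPM in hypoxia. Here too the groups were far apart, yet the hypoxic samples of the knockout all lay below those of the wild type, and its room air samples all lay above. Of all genes 24.4% had groups without overlap between oxygen levels in the knockout. Between genotypes the shares were 25.4% in hypoxia and 10.4% in room air. The knockout means were 126 ± 23.1 and 502 ± 53.6 CPM (SD, n = 4 each), with a log2 fold change of 2.00 ± 0.12 (SE) and a rank of 48th from the highest. In bulk tissue a change in the RNA per cell and a change in the number of cells of a type cannot be told apart, which holds for every value here.

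The size of the hypoxia effect on Cdk19 differed between genotypes. This comparison did not itself choose the gene, but it is made of the hypoxia effects that did. Its p-value, and that between genotypes in hypoxia, use the same hypoxic samples and are not independent of the choice. The log2 fold change in the knockout minus that in the wild type was -0.95 ± 0.17 (SE), with an adjusted p of 0.012 in edgeR's quasi-likelihood test with Benjamini-Hochberg adjustment over all genes. Expressed on the linear scale, the knockout's fold change was 0.517 times that of the wild type. Of all genes, 0.501% passed this test, and Cdk19 was the one of the 7 members that did. In hypoxia alone Cdk19 was lower in the knockout, by a log2 fold change of -0.54 ± 0.12 (SE, adjusted p = 0.00382, edgeR), a comparison in which 23% of all genes passed. In room air it was 0.41 ± 0.12 (SE) higher on the log2 scale without passing (adjusted p = 0.0754, edgeR), although the groups did not overlap, as was so for 10.4% of all genes. That last value passed at an adjusted p of 0.0224 in DESeq2, of 0.0488 in limma voom and of 0.0297 in edgeR when wild type sample 3 in room air was left out. It passed in these 2 of 12 alternatives and this 1 of 16 fits that left out 1 sample, with adjusted p-values up to 0.282 and 0.267. Of all genes, DESeq2 called 1109 and the fit without that sample 2198, in place of 12. Arg2 itself, the check of the genotype labels, was lower in the knockout in hypoxia (log2 fold change -1.13 ± 0.22, SE, adjusted p = 0.00191, edgeR), while in room air it was at -0.70 ± 0.21 (SE, adjusted p = 0.0842, edgeR). Its level was 6.33 to 11.8 CPM over the wild type samples and 3.22 to 7.78 CPM over the knockout samples, so that the genotypes overlapped in room air, where the highest knockout sample was number 4. Reads of Arg2 were thus counted in every knockout sample, and which exons are deleted is not stated in the labels.

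**Figure D1:**
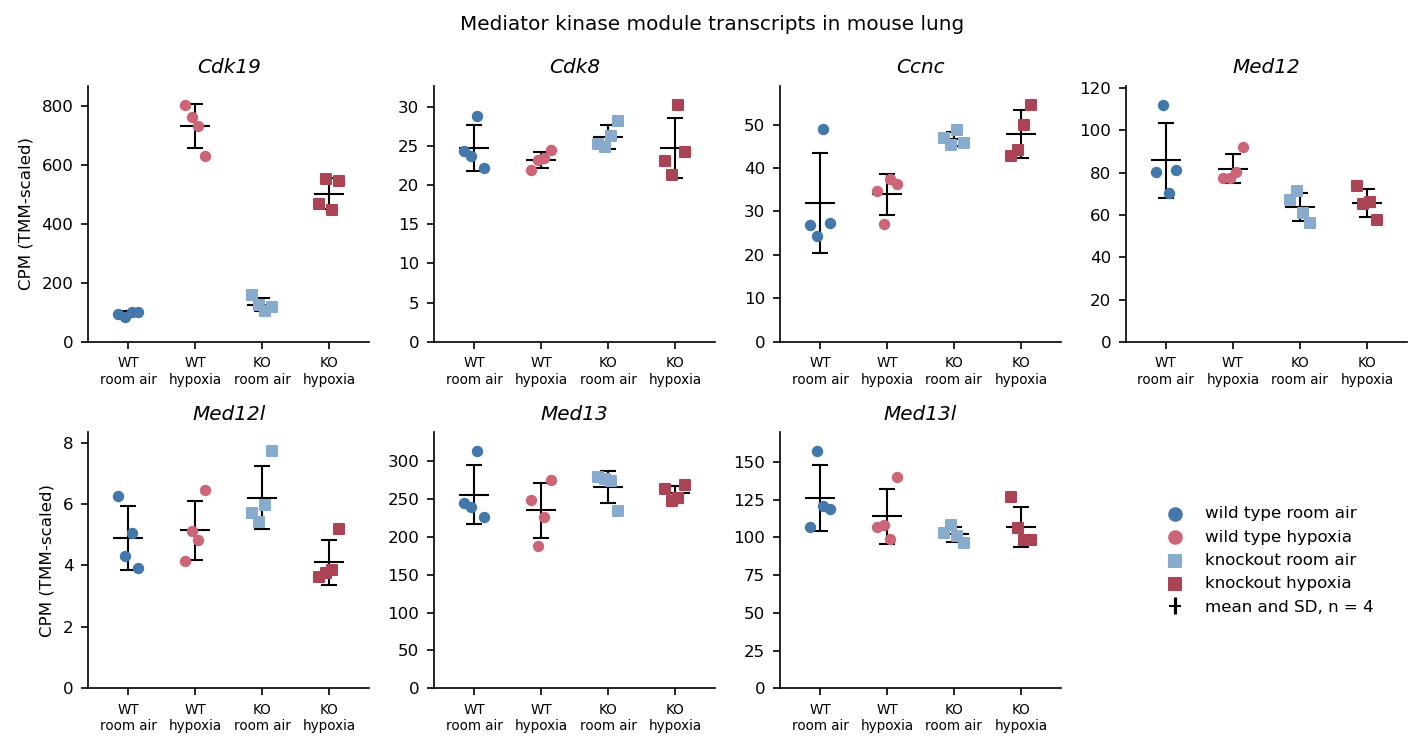
Level of each kinase module gene (y axis, TMM-scaled CPM, from 0, its own scale per panel) in the 4 groups; points are the 4 samples of a group in the order of their numbers, and bars are the mean and SD. Cdk19 lies between 630 and 802 CPM in wild type hypoxia against 83.0 to 101 in wild type room air, while Cdk8, its paralog, stays between 21.3 and 30.2 in all groups.

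Cdk8 (chromosome 5, 146231230 to 146302874, plus strand), the paralog kinase, did not pass the test in any comparison. Its level in wild type lungs was 24.3, 23.7, 28.8 and 22.1 CPM in room air and 21.9, 23.2, 23.4 and 24.4 CPM in hypoxia. In knockout lungs it was 25.2, 24.8, 26.2 and 28.2 CPM in room air and 23.1, 21.3, 30.2 and 24.2 CPM in hypoxia. The ranges of any 2 compared groups overlapped. The log2 fold change with hypoxia was -0.08 ± 0.11 (SE, adjusted p = 0.786) in the wild type and -0.08 ± 0.10 (SE, adjusted p = 0.653) in the knockout, both by edgeR.

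Reads counted for the 2 kinases therefore shifted toward Cdk19. There were 3.89, 3.50, 3.47 and 4.57 counts of Cdk19 for each count of Cdk8 in wild type room air, and 36.7, 32.8, 31.2 and 25.8 in wild type hypoxia. In the knockout this ratio was 6.24, 5.05, 3.92 and 4.16 in room air and 20.3, 25.9, 14.8 and 22.5 in hypoxia. The lowest hypoxic sample of either genotype stood above the highest room air sample. Per length of exons (5.85 kb for Cdk19 and 9.83 kb for Cdk8), Cdk19 made up 86.5% ± 1.46 (SD, n = 4) of the summed CPM per kb of the 2 kinases in wild type room air and 98.1% ± 0.277 in hypoxia. In the knockout the shares were 88.8% ± 2.03 in room air and 97.1% ± 0.703 in hypoxia (SD, n = 4 each). With the length of the longest transcript in place of all exons, which shortens Cdk8 to 3896 bases, the shares were 71.9%, 95.4%, 76.0% and 93.1% in the same order. Between genotypes the share differed by 2.25 points in room air (knockout higher) and by -1.01 points in hypoxia (knockout minus wild type). Exact two-sided permutation tests gave p = 0.114 in room air and p = 0.0571 in hypoxia, or 0.229 and 0.214 adjusted over 10 tests of paralog shares (n = 4 each, smallest possible p 0.0286, so that a single share could not pass once adjusted).

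Ccnc (chromosome 4, 21727701 to 21759922, plus strand), the cyclin that activates either kinase, was higher in the knockout than in the wild type in hypoxia. In wild type lungs it was at 26.8, 24.3, 49.0 and 27.4 CPM in room air and at 34.8, 27.1, 37.5 and 36.3 CPM in hypoxia. In knockout lungs it was at 46.9, 45.3, 48.8 and 45.7 CPM in room air and at 42.8, 44.1, 50 and 54.5 CPM in hypoxia. Apart from 1 wild type room air sample, number 3, every knockout sample was higher than every wild type sample. Between genotypes in hypoxia 25.4% of all genes had groups that did not overlap. In hypoxia the log2 fold change of knockout against wild type was 0.50 ± 0.17 (SE, adjusted p = 0.0394, edgeR), and 11% of all genes passed as higher there. In room air it was 0.58 ± 0.17 (SE, adjusted p = 0.0771, edgeR), and 0.84 with an adjusted p of 0.000348 without wild type sample 3. That sample was the shallowest of the 16, with 9.53e+06 counts in genes and 25.4% of its reads in genes. The transcript of Ccnc is AT-rich (35.5% GC against a median of 49.7% over the genes tested). With each sample's trend on GC content removed, the log2 fold changes of knockout against wild type were 0.13 in hypoxia (adjusted p = 0.264) and 0.15 in room air (adjusted p = 0.42), both by edgeR. When knockout room air 3 and 4 and hypoxia 1 and 2, which hold other organs' markers, were all left out, the value in hypoxia was 0.63 (adjusted p = 0.0724, edgeR). That fit leaves 2 samples in each knockout group, so the lost call does not show that the difference is absent. Leaving out 1 hypoxic sample at a time ended the call for samples 1, 2 and 4 of the wild type and 2, 3 and 4 of the knockout, with log2 fold changes from 0.40 to 0.54 and adjusted p-values up to 0.122 (edgeR). With hypoxia Ccnc changed by 0.12 ± 0.17 in the wild type and by 0.04 ± 0.16 in the knockout on the log2 scale (SE, adjusted p = 0.804 and 0.92, edgeR). When wild type sample 3 in room air was left out the wild type value was 0.38, with an adjusted p of 0.0441 (edgeR). The gene Tstd3 overlaps Ccnc on the opposite strand by 276 exonic bases, and it passed no test.

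Med12 (X chromosome, 101274030 to 101297465, plus strand), the activator of the kinase, did not pass edgeR's test in any comparison, and its differences between genotypes lay near the threshold. In wild type lungs its level was 80.5, 112, 70.5 and 81.1 CPM in room air and 77.5, 77.5, 80.5 and 92.1 CPM in hypoxia. In the knockout it was 66.9, 71.3, 61.1 and 56.4 CPM in room air and 73.5, 65.4, 65.9 and 57.5 CPM in hypoxia. In hypoxia the genotypes did not overlap, as was so for 25.4% of all genes, and in room air 1 knockout sample lay within the wild type range. The log2 fold change of knockout against wild type was -0.43 ± 0.12 in room air (SE, adjusted p = 0.0717, edgeR) and -0.32 ± 0.12 in hypoxia (SE, adjusted p = 0.0582, edgeR). DESeq2 gave adjusted p-values of 0.0226 and 0.0466 for the same comparisons, and limma voom called Med12 in both. In room air it passed in these 2 of 12 alternatives, with adjusted p-values up to 0.46. It also passed there in 1 of the 16 fits that left out 1 sample, with values up to 0.272. With the GC trend removed the log2 fold change in hypoxia was -0.23. In hypoxia it passed in 6 of 12 alternatives, with adjusted p-values from 0.0324 to 0.117 over the 12, and in 3 of the 16 fits that left out 1 sample, with values from 0.0186 to 0.178. With hypoxia Med12 was at -0.07 ± 0.12 in the wild type and at 0.04 ± 0.12 in the knockout (log2 fold change, SE, adjusted p = 0.835 and 0.878, edgeR).

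Med12l (chromosome 3, 59005825 to 59318682, plus strand), the paralog of Med12, was the least abundant member per length and the 1 of the 6 partners that passed the test with hypoxia. It was at 6.27, 4.31, 5.05 and 3.93 CPM in room air and at 4.16, 5.11, 4.82 and 6.46 CPM in hypoxia in the wild type. In the knockout it was at 5.70, 5.41, 5.96 and 7.71 CPM in room air and at 3.62, 3.76, 3.84 and 5.17 CPM in hypoxia. The wild type groups overlapped, while all hypoxic knockout samples lay below all room air knockout samples, which was so, in one direction or the other, for 24.4% of all genes. The log2 fold change in the knockout was -0.59 ± 0.19 (SE, adjusted p = 0.0384, edgeR), and 17% of all genes passed in that comparison, 9.1% as lower. In the wild type the change was 0.08 ± 0.19 (SE, adjusted p = 0.897), and the difference between the genotypes did not pass, at -0.67 ± 0.27 (SE, adjusted p = 0.269), both by edgeR. Without the 4 knockout samples with markers of other organs (room air 3 and 4, hypoxia 1 and 2) the log2 fold change was -0.29 (adjusted p = 0.609, edgeR), in a fit that leaves 2 samples in each knockout group. With the second libraries only (lettered B in the labels) of the room air samples with A and B libraries it was -0.42 (adjusted p = 0.178, edgeR). The A and B libraries of knockout room air 4 gave 8.57 and 4.72 CPM of Med12l before TMM scaling, a gap wider than the range over the 4 knockout samples in room air. Leaving out 1 knockout sample at a time also ended the call for samples 1, 3 and 4 in room air and 1, 2 and 3 in hypoxia, with log2 fold changes from -0.63 to -0.47 and adjusted p-values up to 0.126 (edgeR).

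The introns of Med12l hold several genes on the opposite strand, among them the receptor genes P2ry12, P2ry13, P2ry14 and Gpr171, and its last exons overlap Igsf10 by 1948 exonic bases. P2ry12, the ADP receptor of platelets, moved in the same comparison as Med12l, from 10.3 CPM in room air to 6.21 CPM in hypoxia in the knockout (log2 fold change -0.74 ± 0.20, SE, adjusted p = 0.0142, edgeR). The summed level of 7 platelet and megakaryocyte markers in the knockout was between 109 and 139 CPM in room air and between 66.2 and 87.7 CPM in hypoxia, and between 56.8 and 92.7 CPM in both wild type groups. Of the 7 markers 2, Ppbp and Itga2b, passed as lower with hypoxia in the knockout, where 9.1% of all genes did. In the other comparisons 0 of the 7 passed, where between 0.0761% and 23% of all genes did. None of these markers was at 0 in any group, and the part of platelet RNA in the Med12l values was not tested. Gpr171 fell with hypoxia in both genotypes, by 1.04 and 1.13 on the log2 scale (wild type and knockout, adjusted p = 0.00139 and 0.000223, edgeR). P2ry13 rose in the wild type (0.66 ± 0.19, SE, adjusted p = 0.0496, edgeR), and P2ry14 and Igsf10 passed in neither genotype with hypoxia. Neighbours within the same locus thus moved in different directions. The library kit marks the strand, per the labels' protocols, but whether the counting used it is not stated in the labels.

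Med13 (chromosome 11, 86267033 to 86357602, minus strand) and Med13l (chromosome 5, 118560679 to 118765438, plus strand), the alternative links to the Mediator core, passed no test. In wild type lungs Med13 was at 245, 240, 313 and 227 CPM in room air and at 249, 188, 227 and 275 CPM in hypoxia, and in knockout lungs at 279, 276, 274 and 234 CPM in room air and at 263, 247, 252 and 269 CPM in hypoxia. Med13l was at 107, 157, 121 and 119 CPM in room air and at 107, 108, 99.2 and 140 CPM in hypoxia in the wild type, and at 103, 108, 101 and 96.3 CPM in room air and at 127, 106, 98.6 and 98.2 CPM in hypoxia in the knockout. For both genes every pair of compared groups overlapped. With hypoxia the log2 fold change of Med13 was -0.12 ± 0.11 in the wild type and -0.04 ± 0.11 in the knockout (SE, adjusted p = 0.661 and 0.838, edgeR), and that of Med13l was -0.15 ± 0.12 and 0.07 ± 0.12 (SE, adjusted p = 0.614 and 0.742, edgeR). The value farthest from 0 for either gene was that of Med13l in room air, knockout against wild type, at -0.31 ± 0.12 (SE, adjusted p = 0.151, edgeR).

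**Figure D2:**
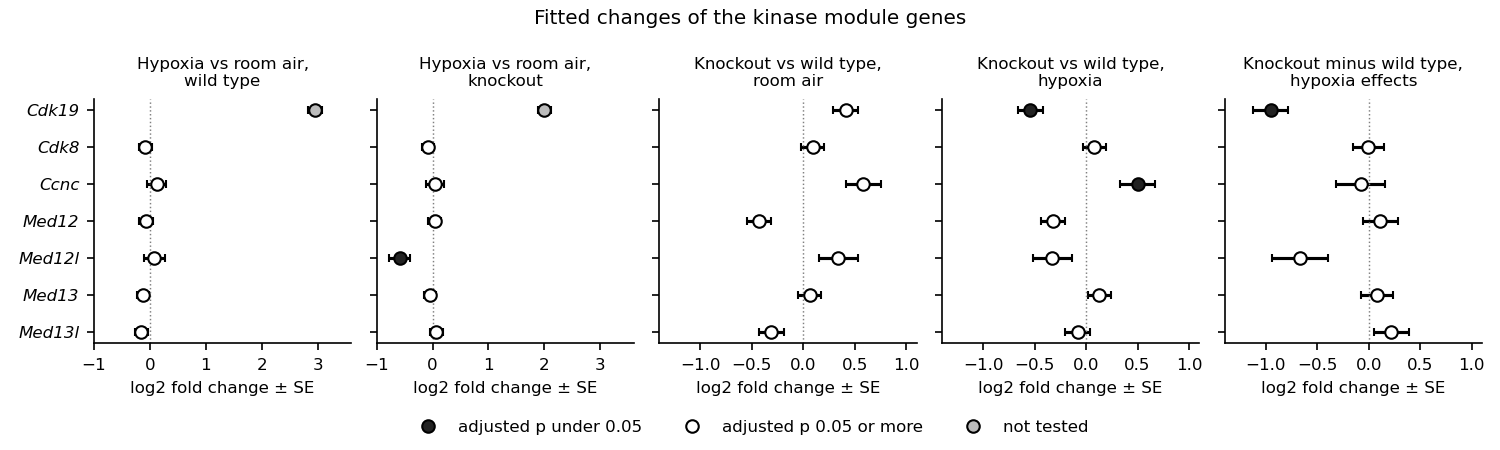
Fitted log2 fold change with its SE (x axis) of the 7 genes in 5 comparisons; black points passed at an adjusted p under 0.05, white points did not, and grey points, Cdk19 with hypoxia, were not tested. Cdk19 lies at 2.95 and 2.00 with hypoxia, and the other genes lie between -0.59 and 0.12 in those 2 panels.

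Counted over the module, 0 of the 6 partners of Cdk19 passed with hypoxia in the wild type, where 4.98% of all genes passed, and 1 of 6 passed in the knockout, where 17% of all genes did. At an unadjusted p under 0.05, 16.3% of all genes and 0 of the 6 partners passed in the wild type, and DESeq2 and limma voom called 0 of the 6 as well. Between genotypes 0 of 7 members passed in room air, where 0.0761% of all genes did, and 2 of 7 in hypoxia, Ccnc as higher and Cdk19 as lower, where 23% of all genes did. Both of these counts, 1 of 6 and 2 of 7, are near the share of all genes. At an unadjusted p under 0.05 edgeR's test gave 4 of 7 in room air, beside 21.6% of all genes. The adjusted room air count was 3, namely Cdk19, Ccnc and Med12, with DESeq2, with limma voom, and without sample 3 of the wild type group. These fits also called more of all genes, 1109 with DESeq2 and 2198 without that sample, in place of 12. A count of 3 is therefore not to be set against 0.0761%. The median log2 fold change of the 7 genes was between -0.08 and 0.09 in all 5 comparisons, against -0.02 to 0.0038 for the median of all genes tested. Since Cdk19 chose the set, nothing is read from the count with hypoxia.

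Compared per exon length, the order of the members changed with oxygen at its top. In wild type room air Med13 was first with 23.6 ± 3.58 CPM per kb (SD, n = 4), followed by Cdk19 with 16.2 ± 1.41, Med12 with 11.2 ± 2.31, Med13l with 8.17 ± 1.42, Ccnc with 6.23 ± 2.25, Cdk8 with 2.51 ± 0.293 and Med12l with 0.383 ± 0.0806. In this order the range of Cdk19 overlapped with that of Med12, Med12 with Med13l, and Med13l with Ccnc, and the differences between these neighbours were not tested. In wild type hypoxia Cdk19 was first with 125 ± 12.5 CPM per kb, ahead of Med13 with 21.7 ± 3.37, and in knockout hypoxia it was first with 85.8 ± 9.16 ahead of Med13 with 23.8 ± 0.916 (SD, n = 4 each). In neither hypoxic group did these 2 overlap. In knockout room air Med13 with 24.5 ± 1.95 and Cdk19 with 21.5 ± 3.95 CPM per kb (SD, n = 4 each) did overlap. Cdk8 and Med12l were the last 2 in each group. Med12l made up 3.44% of the level per length of Med12 and Med12l in room air and 3.63% in hypoxia in wild type lungs, and 5.62% and 3.70% in knockout lungs. Med13l made up 25.8%, 25.4%, 21.3% and 22.6% of the level of Med13 and Med13l in the same order. In exact permutation tests over the 10 comparisons of shares the smallest adjusted p was 0.214. Since the smallest possible p is 0.0286 before adjustment, a single share could not pass, and these tests do not show that the shares were equal.

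In the rest of Mediator, 0 of 26 genes of the head, middle, tail and scaffold passed edgeR's test with hypoxia in the wild type, with log2 fold changes from -0.21 to 0.24. DESeq2 and limma voom also called 0 there, and 1 gene, Med9, had an unadjusted p under 0.05. In the knockout 2 of 26 passed, where 17% of all genes did. Med21, a middle subunit, rose with hypoxia (0.43 ± 0.14, SE, adjusted p = 0.0391, edgeR), and Med16, a tail subunit, fell (-0.43 ± 0.14, SE, adjusted p = 0.0422, edgeR). Between genotypes in hypoxia 7 of 26 passed, a share near the 23% of all genes, with 6 higher in the knockout and 1 lower, where 11% of all genes were higher and 12.1% lower. Med21 went from 19.1 CPM in the wild type to 37.5 CPM in the knockout (log2 fold change 0.98 ± 0.14, SE, adjusted p = 0.00025, edgeR), and Med7 from 17.6 to 24.9 CPM (0.50 ± 0.14, adjusted p = 0.0136). Med16 went the other way, from 27.8 to 14.8 CPM (log2 fold change -0.91 ± 0.14, SE, adjusted p = 0.00047, edgeR). In the head module Med28 was higher by 0.30 ± 0.08 and Med6 by 0.32 ± 0.10 (log2 fold change, SE, adjusted p = 0.0097 and 0.0342, edgeR). Values of core genes between genotypes were not examined with the GC trend removed, a step that made the difference of Ccnc smaller. The difference between the hypoxia effects passed for 0 of the 26 genes, while 0.501% of all genes passed. By an unadjusted p under 0.05 there were 2, Med16 and Med20, beside 14.1% of all genes, and DESeq2 and limma voom called 0.

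**Figure D3:**
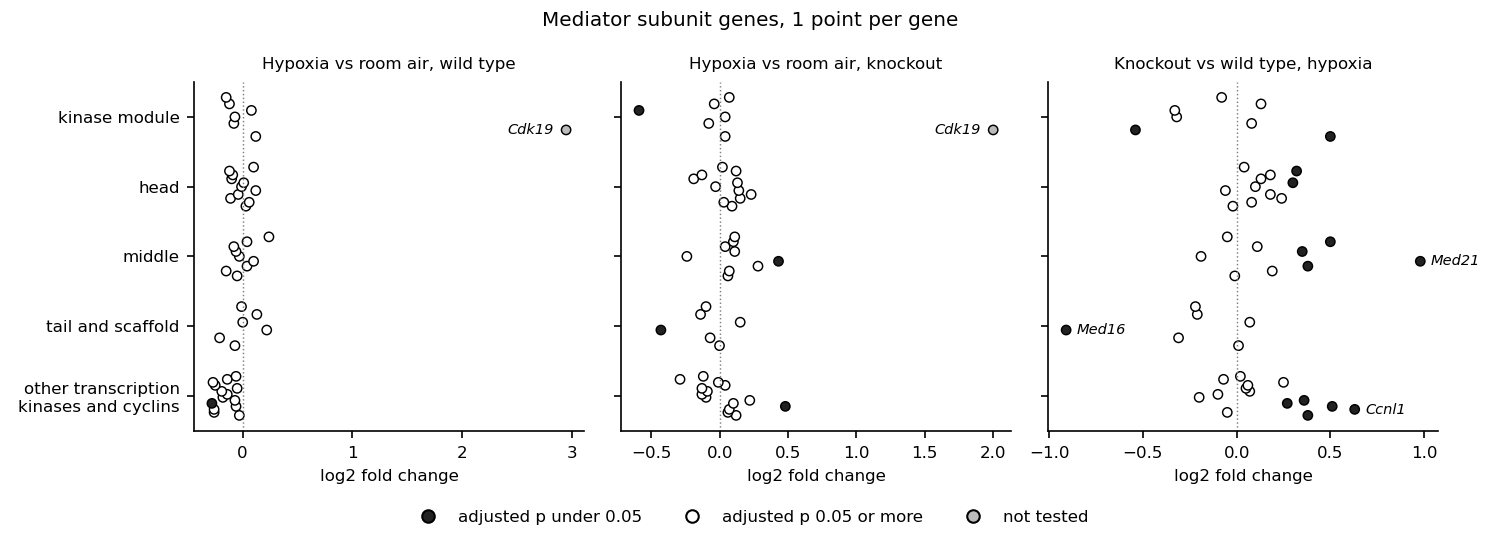
Log2 fold change (x axis, its own scale per panel) of the genes of the kinase module, of the 3 parts of the Mediator core and of other transcription kinases with their cyclins, 1 point per gene; black points passed at an adjusted p under 0.05, white points did not, grey points were not tested. Core genes lie between -0.21 and 0.24 with hypoxia in the wild type, and Med21 at 0.98 and Med16 at -0.91 mark the ends of the core between genotypes in hypoxia.

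The other kinases that act on the polymerase were counted in the same way. Of 14 genes for Cdk7, Cdk9, Cdk11b, Cdk12 and Cdk13, their cyclins and regulators, 0 rose and 1 fell with hypoxia in the wild type, namely Ccnt1, a cyclin of the elongation kinase Cdk9 (-0.28 ± 0.08, SE, adjusted p = 0.0415, edgeR), which limma voom did not call; 4.98% of all genes passed there. All 14 fitted changes were below 0 there, with a median of -0.16 against -0.01 over all genes. In the knockout, where 17% of all genes passed, 1 rose, the cyclin L gene Ccnl2 (0.48 ± 0.12, SE, adjusted p = 0.00792, edgeR). Between genotypes in hypoxia 5 of the 14 were higher in the knockout and 0 lower, against 11% and 12.1% of all genes. They were led by Ccnl1, which went from 67.4 to 104 CPM (log2 fold change 0.63 ± 0.10, SE, adjusted p = 0.000404, edgeR). For the lists of kinase and elongation genes, values between genotypes were not examined with the GC trend removed. Of 6 genes of the super elongation complex, 0 passed with hypoxia in either genotype (1 and 0 at an unadjusted p under 0.05, and 0 in DESeq2 and limma voom), and 1 of 6, Mllt3, was higher in the knockout in hypoxia, where 11% of all genes were (0.49 ± 0.11, SE, adjusted p = 0.00513, edgeR). Among 16 tested genes of the wider cyclin-dependent kinase family, 1 rose with hypoxia in both genotypes, beside the shares of all genes called in either direction, 4.98% and 17%. It was Cdk14, a kinase that works with cyclin Y, at 0.42 ± 0.08 in the wild type and 0.60 ± 0.08 in the knockout (log2 fold change, SE, adjusted p = 0.00315 and 4.55e-05, edgeR). Its change was thus in the direction of Cdk19 and smaller. Cdk6, a kinase of the cell cycle, fell in the knockout (-0.28 ± 0.09, SE, adjusted p = 0.0465, edgeR), as did Cdkl1 (-0.83 ± 0.24, SE, adjusted p = 0.0212, edgeR).

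The genes around Cdk19 on chromosome 10 were measured alongside it. Within 500 kb of either end, 13 other genes have a row in the tables, of which 10 passed the filter on low counts. Of these 10, 0 passed in any of the 5 comparisons with edgeR, DESeq2 or limma voom, and Slc16a10 and Cdc40 had an unadjusted p under 0.05 with hypoxia in the wild type, beside 16.3% of all genes. Of all genes, edgeR called 4.98% and 17% with hypoxia (wild type and knockout) and 0.0761% and 23% between genotypes (room air and hypoxia). It called 0.501% for the difference between the hypoxia effects, so that 0 of 10 is near most of these shares. With hypoxia in the wild type the log2 fold changes of the 10 neighbours were between -0.18 (AI317395) and 0.52 (Wasf1, with an SE of 0.60). The nearest 2 that were tested, Gtf3c6 and Rpf2, lie 81456 and 92528 bases before Cdk19 and were at -0.03 and 0.02 in the wild type on the log2 scale. The antisense gene Cdk19os, whose exons share 268 bases with Cdk19, has no row. Around Cdk8, 3 neighbours were tested, and Wasf3 rose with hypoxia in both genotypes (0.61 ± 0.13 and 0.52 ± 0.13, log2 fold change with SE, adjusted p = 0.00709 and 0.00798, edgeR), where 4.98% and 17% of all genes passed.

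**Figure D4:**
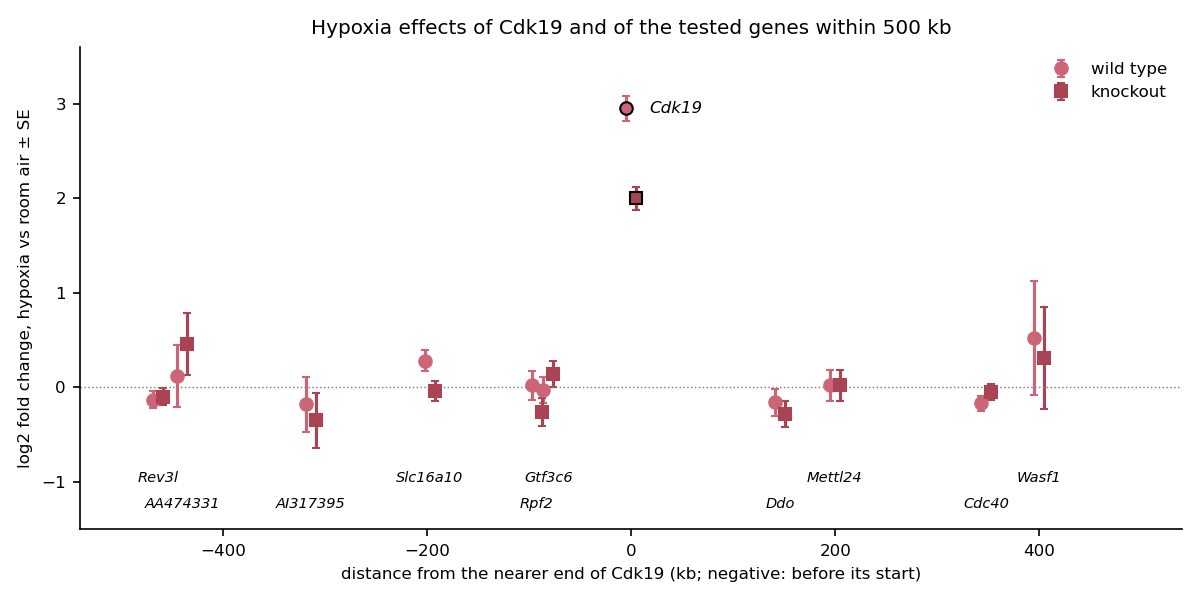
Log2 fold change with hypoxia and its SE (y axis) of Cdk19, at 0, and of the 10 tested genes within 500 kb, by distance from the nearer end of Cdk19 (x axis, kb), in the wild type (circles) and the knockout (squares). Cdk19 lies at 2.95 and 2.00, and the wild type values of its neighbours lie between -0.18 and 0.52.

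The genes whose levels were most like Cdk19 were found by Pearson's r of log2 CPM over the 16 samples, among 14238 genes with a mean of at least 1 CPM. The levels of Cdk19 fall into 2 separate ranges by oxygen, so that a gene with a large hypoxia effect tends to score high or low, and r is given as a description. The 10 highest were Ntrk2 (0.99), Cxcl12 (0.98), Fam181b and Mgll (0.97 each), and Adam23, Slc26a10, Gap43, Tcf23, Slc44a1 and Car14 (0.96 each). Ntrk2 codes for the neurotrophin receptor TrkB, Cxcl12 for a chemokine, Mgll for monoglyceride lipase and Gap43 for a protein of growing axons. Ntrk2 had the nearest pattern across the groups, with mean levels of 17.1 and 413 CPM in wild type room air and hypoxia and of 25.7 and 272 CPM in the knockout. Its log2 fold changes with hypoxia were 4.60 ± 0.22 and 3.40 ± 0.20 (SE), a difference between genotypes of -1.20 ± 0.27 (SE) beside -0.95 for Cdk19. These genes were chosen by their likeness in these samples, so no test is given for them. Cxcl12 rose from 257 to 1148 CPM in the wild type and from 293 to 1040 CPM in the knockout, a difference between the genotypes of -0.33 ± 0.18 on the log2 scale (SE). The 5 lowest were Fmo1 (-0.97) and Myzap, Cyp4b1, Slc16a9 and Nptx1 (-0.96 each). The other members of the module were far from both ends, with r from -0.36 for Cdk8 to 0.11 for Ccnc.

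**Figure D5:**
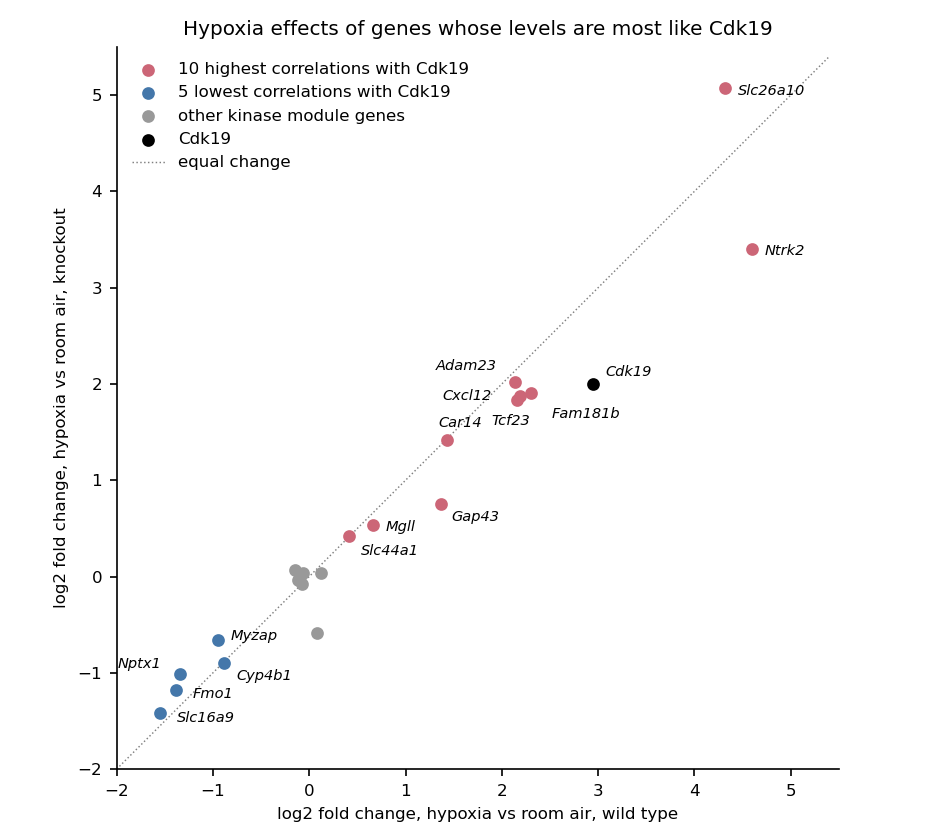
Log2 fold change with hypoxia in the wild type (x axis) and the knockout (y axis) of Cdk19, of the 10 genes with the highest and the 5 with the lowest correlation with it over 16 samples, and of the other 6 module genes; the dotted line marks equal change. Cdk19 (2.95 and 2.00) and Ntrk2 (4.60 and 3.40) lie below the line, Slc26a10 (4.32 and 5.07) above it, and the module genes near 0.

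When group means were taken out, so that only differences between samples of a group remained, another set of genes came nearest to Cdk19. These were Lix1l (r = 0.87), Lxn (0.79), Dtd2 and Fam134c (0.78 each) and Palmd (0.77), and none of the 10 genes above was among them. Palmd rose with hypoxia in both genotypes, from 48.4 to 94.2 CPM and from 44.6 to 72.4 CPM (log2 fold changes 0.96 ± 0.11 and 0.70 ± 0.11, SE). Of the partners, Ccnc had an r of 0.11 with Cdk19 on this measure and Cdk8 one of -0.37.

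Depth was between 9.53e+06 and 6.33e+07 counts in genes per sample, so that 3 counts correspond to at most 0.315 CPM, and reads in genes made up between 25.4% and 64.2% of reads in genes or in no gene. Lung tissue was recognised by 15 epithelial markers with a summed level between 39279 and 51750 CPM and 12 endothelial markers between 6448 and 8094 CPM in every sample. Markers of other organs were high in some samples: pancreas at 1225 CPM in knockout hypoxia 1 and 93.8 in knockout hypoxia 2, thymocytes at 84.6 and 72.2 CPM in knockout room air 3 and 4, and heart muscle at 942 CPM in knockout room air 3. Without these 4 samples the difference between the hypoxia effects on Cdk19 was -1.14 (adjusted p = 0.0386, edgeR). That fit keeps every wild type sample and leaves 2 samples in each knockout group. Skeletal muscle markers reached 1154 CPM in wild type room air 1, against at most 44.3 CPM in any other sample, and without that sample the same difference was -0.95 (adjusted p = 0.0218, edgeR). Some cell type markers moved with oxygen in the same comparisons. The summed level of 6 aerocyte markers was between 482 and 596 CPM in room air and between 266 and 400 CPM in hypoxia. Of these, 4 were lower with hypoxia in each genotype, as were 2 of 6 general lung capillary markers, Plvap and Kit. Of 6 macrophage markers with a row, 1 was higher in the wild type, and 2 were higher and 1 lower in the knockout. Of all genes 4.98% and 17% passed in these comparisons (wild type and knockout, either direction). Of 10 fibroblast and pericyte markers 1 rose with hypoxia in each genotype, the pericyte gene Rgs5, by 2.49 ± 0.34 and 4.41 ± 0.34 (log2 fold change, SE, wild type and knockout, adjusted p = 0.00046 and 1.3e-06, edgeR). Of all genes 4.98% and 17% passed there in either direction. The difference between the genotypes in the effect on Rgs5 was 1.92 ± 0.45 (SE, adjusted p = 0.0771, edgeR). Between genotypes in hypoxia Rgs5 was higher in the knockout and 4 of the 10 were lower, led by the pericyte gene Pdgfrb, with a median log2 fold change of -0.33. Of all genes 11% were higher there and 12.1% lower. The summed level of the 10 was 1885 to 2284 CPM in hypoxia in the wild type and 1589 to 2158 CPM in the knockout, against 1559 to 1815 and 1412 to 1707 CPM in room air. Lymphocyte markers fell with hypoxia. Of 8 B cell markers 4 were lower in the wild type and 8 in the knockout (medians -1.12 and -1.80 on the log2 scale), and of 10 T and natural killer cell markers 4 and 10 were (medians -0.64 and -1.53). Of all genes 4.98% passed in the wild type in either direction, and 17% in the knockout, 9.1% as lower. Between genotypes in hypoxia 8 of the 8 and 5 of the 10 markers were lower in the knockout, as were 12.1% of all genes. The difference between the hypoxia effects had medians of -0.75 and -0.68 and passed edgeR's test for 0 of 8 and 0 of 10 (2 and 4 at an unadjusted p under 0.05, 0 and 3 in DESeq2, 0 and 0 in limma voom). Of all genes 0.501% passed edgeR's test there, and 14.1% had an unadjusted p under 0.05. The summed B cell level was 97 to 213 CPM in room air and 57 to 106 CPM in hypoxia in the wild type, and 84.4 to 131 and 25.8 to 45.4 CPM in the knockout; no marker of these lists was at 0 in any group. The part of cell makeup in the change of Cdk19 was not tested.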

How the data were processed

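The lungs were frozen, ribosomal RNA was removed from their total RNA, and a strand-marking kit made the libraries, per the labels' protocols. Trim Galore, TopHat2 with the build mm10, and HTSeq are the tools named per the submitters' processing notes; their versions, the gene annotation and the strand setting are not stated there. Each deposited table holds whole-number counts by gene symbol, used as unscaled, and its 5 lines that name no gene were left out. Where the labels give 2 libraries (A and B) of 1 number, their counts were summed, so 20 libraries gave 16 samples; each A and B pair were each other's nearest library. The labels do not state that each number is a separate animal, so the tests reflect only the spread between samples. The main fit held no covariate, so the sex of the mice was not taken into account.

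From these counts edgeR 4.0.16 (R 4.3.3) gave TMM-scaled CPM and quasi-likelihood tests in 1 fit of all 4 groups, after a filter on low counts (minimum count 10, minimum total 15), two-sided, with Benjamini-Hochberg adjustment over 15766 genes and a threshold of 0.05. The test was checked on simulated counts made for the comparison of hypoxia with room air in wild type. Their means, depth and spread were taken from the fit of these data. The difference between the hypoxia effects was not simulated. DESeq2 1.42.0, limma 3.58.1 and other filters, scalings and left-out samples were tried as alternatives. Equal numbers did not pair the samples, so no block was used. Depth was between 9.53e+06 and 6.33e+07 counts in genes. Lengths and sequences came from GENCODE annotation of GRCm38. The 7 genes and all lists were chosen with earlier results of these data known. Named beside them were genes that overlap them, genes within 500 kb of Cdk19 or Cdk8, up to 3 called genes with the smallest p per list and direction of Mediator and kinase genes, and the genes most and least like Cdk19.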

Additional observations from a re-analysis of the deposited data

Results flagged for a closer look

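The hypoxia effect on Cdk19 differed between the genotypes by the test of the difference itself: knockout minus wild type was -0.95 on the log2 scale (SE 0.17, adjusted p = 0.012, edgeR's quasi-likelihood test). That test is made of the hypoxia effects for which Cdk19 was chosen, so it is not independent of the choice. Knockout samples in hypoxia were lower than all wild type ones in 4 of 4 samples, and in room air higher in 4 of 4. The genotypes did not overlap for 25.4% of all genes in hypoxia and for 10.4% in room air. In 3 of the 40 groups of 4 samples examined, 1 sample stood apart from the rest by Dixon's criterion, which chance alone meets in about 1 of 20 groups. Ccnc was at 49 CPM in wild type room air 3, against 24.3 to 27.4 CPM in the other 3. Med12l was at 5.17 CPM in knockout hypoxia 4, against 3.62 to 3.84 CPM in the other 3. Med13 was at 234 CPM in knockout room air 4, against 274 to 279 CPM in the other 3.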

How the results depend on the processing

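The difference between the hypoxia effects on Cdk19 kept its direction and stayed past the threshold in all 11 alternatives (-1.14 to -0.94, log2) and in all 16 fits that left out 1 sample (-1.04 to -0.82), as did its lower level in the hypoxic knockout (-0.59 to -0.53 in 12 alternatives and -0.60 to -0.49 in 16 fits). Its difference in room air was 0.42 in DESeq2 and 0.40 in limma voom, past the threshold in these 2 of 12 alternatives only. With 1 sample left out it was between 0.28 and 0.50, past the threshold only without wild type room air 3, at 0.44. Its share of the level per length of the 2 kinases rose with hypoxia by 11.6 and 8.35 percentage points (wild type and knockout), and by 23.5 and 17.1 points with the longest transcript's length.

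Of the partners with hypoxia in the knockout, 1 passed, and 0 with the B libraries only or when the 4 samples holding other organs' markers were left out. With 1 sample left out the count was between 0 and 1, as it was in the wild type, where only the fit without wild type room air 3 gave 1. Of all genes 2685 passed with hypoxia in the knockout, between 1092 and 3424 over the alternatives and between 2011 and 3056 with 1 sample left out. Of the 7 members between genotypes in room air, 0 passed, 3 with DESeq2 and with limma voom, and between 0 and 3 with 1 sample left out. Of all genes 12 passed there, 1109 with DESeq2, and between 0 and 2198 with 1 sample left out. In hypoxia 2 of the 7 members passed, 3 (Med12 added) with DESeq2 and limma voom and up to 3 in other alternatives, 1 without a filter on low counts, with the GC trend removed or without the 4 samples, where Ccnc was at 0.49, 0.13 and 0.63 without passing, and between 1 and 3 with 1 sample left out. Of all genes 3633 passed between genotypes in hypoxia, between 2262 and 4309 over the alternatives and between 2093 and 4337 with 1 sample left out. The sample numbers did not pair the samples: over 24 pairs of equal number the correlation of deviations was between -0.33 and 0.46, and 4 of 16 samples correlated best with their own number. With the number as a replicate block 1 member passed in room air (Ccnc, 0.61, adjusted p = 0.0451, edgeR) and 238 genes in place of 12.

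Other reversals concerned members that did not pass. With 1 sample left out, the log2 fold change with hypoxia in the wild type was between -0.15 and 0.08 for Med12 and between -0.05 and 0.24 for Med12l, and in the knockout between -0.03 and 0.09 for Ccnc, -0.02 and 0.10 for Med12, and -0.01 and 0.12 for Med13l. Between genotypes in hypoxia it was between -0.02 and 0.15 for Cdk8 and between -0.17 and 0.04 for Med13l. The difference between the effects was between -0.11 and 0.06 for Cdk8, -0.34 and 0.02 for Ccnc, -0.04 and 0.19 for Med12, and -0.03 and 0.16 for Med13. Without the 4 samples the knockout's hypoxia values were 0.12 for Cdk8, -0.16 for Med12 and -0.10 for Med13l, and the differences between effects were 0.20 for Cdk8, 0.07 for Ccnc and -0.09 for Med12. With the GC trend removed Cdk8 was at -0.07 and -0.08 and Med13 at -0.17 and -0.08 between genotypes in room air and hypoxia, and Ccnc at -0.01 with hypoxia in the knockout, where the A libraries alone gave -0.0026. With 1 sample left out the change of the Med12l share with hypoxia in the wild type was between -0.196 and 0.542 points, that of the Med13l share between -1.89 and 1.5, and the Med12l share between genotypes in hypoxia between -0.417 and 0.338. The cause of these changes was not tested.

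The number of all genes called was most variable between genotypes in room air: 12 as reported, from 0 without the 4 samples and 4 in a fit of the compared groups only to 1109 with DESeq2 and 959 with limma voom, and 2198 when wild type room air 3 was left out. It was 785 with hypoxia in the wild type and 400 in a fit of the compared groups only. Without the 4 samples it was 1092 in place of 2685 with hypoxia in the knockout, 2262 in place of 3633 between genotypes in hypoxia, and 13 in place of 79 for the difference between the effects, where DESeq2 gave 495. With the 4 samples left out the knockout groups are smaller, so a lower count there does not show that the differences are absent. At the lowest depth 3 counts are 0.315 CPM, well under the lowest Med12l level of 3.62 CPM, so every member was detected in every sample.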
